A study of Mus musculus with 14 samples.

Results

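Prostaglandin and leukotriene pathway genes were examined in macrophages from mouse mammary tumours, as a set of 10 named genes out of the 24556 genes in the table. The set holds the 2 cyclooxygenases Ptgs1 and Ptgs2, the prostanoid synthases Ptges, Hpgds and Tbxas1, the prostaglandin E2 receptor Ptger4, the leukotriene synthesis genes Alox5, Alox5ap and Ltc4s, and the leukotriene B4 receptor Ltb4r1. All 10 were found by symbol, and all 10 passed the filter on low values that 11886 genes passed. The rule lists the members by name and sets no threshold on their values, but they were chosen with earlier results of these data known.

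The tumours grew in the fat pad of Balb/c mice from 4T1 cells, a transplantable mouse mammary carcinoma line. Before injection, the cells were kept for 5 days with 5 µM GSK269962A, a small-molecule inhibitor, or with the vehicle DMSO, and the mice themselves are not labelled as treated. Cells were taken from the tumours with beads against the macrophage surface protein encoded by Adgre1, in 2 rounds of magnetic columns, and their RNA was sequenced. The 4 groups are GSK day 8 (3 libraries), DMSO day 8 (3 libraries), GSK day 14 (4 libraries) and DMSO day 14 (4 libraries), counted from injection. The labels give no mouse age, and they do not say whether each library came from its own mouse, so the p-values measure the spread between these samples, which may be technical.

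Both branches of the pathway start from arachidonic acid, which phospholipases release from membranes. The cyclooxygenases turn it into prostaglandin H2, from which separate synthases make prostaglandin E2, prostaglandin D2 and thromboxane A2. On the other branch, 5-lipoxygenase (Alox5) with its membrane partner FLAP (Alox5ap) makes leukotriene A4, which Lta4h turns into leukotriene B4, a chemoattractant for myeloid cells, and Ltc4s into the cysteinyl leukotrienes. Tumour macrophages are known as a source of prostaglandin E2, which acts on immune cells through receptors such as Ptger4.

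The deposited values are on a log2 scale, and every level below is such a value unless it is said to be per kilobase. The libraries of a group had a Pearson correlation of 0.967 to 0.993 over the 11886 kept genes. The 12 macrophage markers checked, Adgre1 and Csf1r among them, all passed the filter. Ribosomal RNA was assigned mainly to the gene AY036118 in 9 libraries (4 GSK day 14, 2 DMSO day 14, 2 GSK day 8 and 1 DMSO day 8) and mainly to Gm42418 in the other 5. The summed level of 4T1 epithelium markers was 10.31 to 10.77 in GSK day 14 libraries and 10.44 to 11.06 in DMSO day 14 libraries, against 10.90 to 12.09 in GSK day 8 and 11.23 to 11.62 in DMSO day 8 libraries. Cdh1 had the highest median of that list and stayed between 9.90 and 10.66, so the sum hides larger changes of other markers. Krt18 averaged 6.60 in GSK and 7.51 in DMSO day 14 libraries, against 9.55 in GSK and 9.19 in DMSO day 8 libraries. In these bulk samples, fewer cells of a type and less RNA per cell cannot be told apart.

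Per kilobase of exon, the members spanned a wide range of levels. Alox5ap was highest, with a median over the 14 libraries of 10.15 log2 units per kilobase (9.98 to 10.48), followed by Ltb4r1 at 9.70 (8.88 to 10.71). Ptgs1 at 7.81 (7.58 to 8.00), Ltc4s at 7.69 (7.27 to 8.28), Ptgs2 at 7.61 (6.55 to 8.40) and Tbxas1 at 7.12 (6.47 to 7.47) came next. Hpgds, the hematopoietic prostaglandin D synthase, had a median of 6.10 per kilobase (5.37 to 6.42). Ptger4 at 4.58 (4.19 to 4.87) and Alox5 at 4.11 (3.56 to 4.42) were lower. Ptges, the inducible microsomal prostaglandin E synthase, was lowest at 2.55 (2.06 to 3.24). Compared within libraries, Alox5ap exceeded Ltb4r1 in 11 of 14, Ptgs1 exceeded Ltc4s in 10 of 14, Ltc4s exceeded Ptgs2 in 8 of 14 and Ptgs2 exceeded Tbxas1 in 12 of 14, so the order of these neighbours varied between libraries. Every other neighbouring pair, Ptger4 and Alox5 among them, kept its order in 14 of 14. The lengths are unions of all annotated exons, and a transcript shorter than that union would have its level understated.

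**Figure D1:**
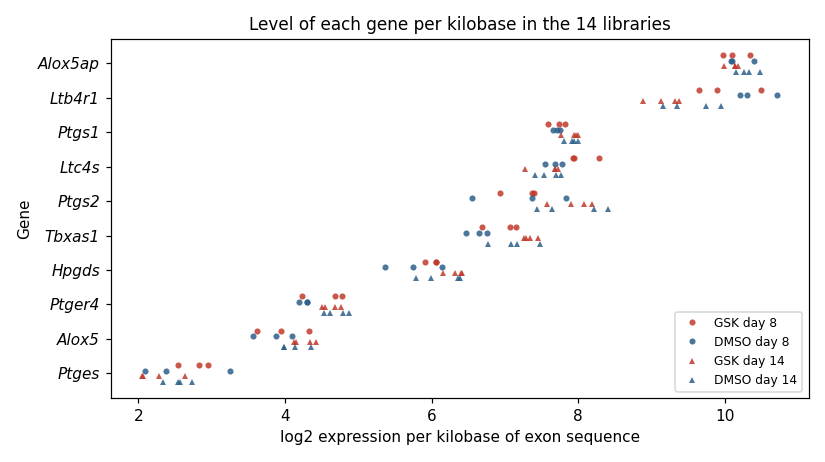
Level of the 10 members per kilobase of exon (log2 scale) in the 14 libraries, 1 point per library, coloured by group, with the members ordered by their median. Alox5ap and Ltb4r1 stand at the high end, with medians of 10.15 and 9.70, and Ptges stands at the low end with 2.55.

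The stretches just before the annotated starts of Ptgs1, Ptgs2 and Ltb4r1 are shown because these genes had the steadiest level and the widest ranges of the set. They are the 250 bases before each start in RefSeq's GRCm38.p6 assembly, at chr2:36230176-36230425, chr1:150099781-150100030 and chr14:55765712-55765961, all on the plus strand, with motif matches in capitals:
Ptgs1: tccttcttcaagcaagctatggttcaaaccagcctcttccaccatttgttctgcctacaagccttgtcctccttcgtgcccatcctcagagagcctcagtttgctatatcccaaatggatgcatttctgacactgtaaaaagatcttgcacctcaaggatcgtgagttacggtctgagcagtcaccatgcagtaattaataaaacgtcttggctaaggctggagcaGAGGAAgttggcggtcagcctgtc
Ptgs2: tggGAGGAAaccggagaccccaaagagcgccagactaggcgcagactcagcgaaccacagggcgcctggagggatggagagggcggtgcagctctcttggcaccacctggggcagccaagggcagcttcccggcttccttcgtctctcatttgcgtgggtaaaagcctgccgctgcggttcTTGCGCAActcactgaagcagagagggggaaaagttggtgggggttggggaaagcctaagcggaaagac
Ltb4r1: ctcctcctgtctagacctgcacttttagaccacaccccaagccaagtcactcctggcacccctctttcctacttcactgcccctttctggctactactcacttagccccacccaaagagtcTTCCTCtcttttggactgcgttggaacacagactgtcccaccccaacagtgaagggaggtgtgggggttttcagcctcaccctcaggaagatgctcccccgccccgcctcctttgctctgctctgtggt
Windows were found for 9 of the 10 members, the exception being Alox5ap, and 4 motifs were searched on both strands. The C/EBP palindrome TTGCGCAA was in the window of 1 of 9 members, Ptgs2, 69 bases before the start, and in 0.164% of 32851 windows of all genes. The ETS-type motif GAGGAA was in 7 of 9 windows, against 23.3% of all windows. It appears as TTCCTC where it lies on the other strand, as in Ltb4r1. Of those windows, that of Tbxas1 (chr6:38918736-38918985) and that of Ptges (chr2:30903298-30903547) lie inside the annotated spans of their genes, chr6:38875404-39084585 and chr2:30889471-30929863. The window of Hpgds (chr6:65144731-65144980) lies partly inside its gene, chr6:65117293-65144908, and the match is in that part. The cyclic AMP element core TGACG was in 0 of 9 windows (17.8% of all), and the TATA box TATAAA in 1 of 9, that of Tbxas1 (12.4% of all). The search ended at the annotated start, so a site past it or further upstream was not counted, and a window without a match does not show that the gene lacks one. Matches of different motifs did not overlap in the 3 printed windows, and they describe letters, not binding.

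No member passed the test in any comparison of GSK with DMSO. On day 8, 0 of 10 were called by limma at an adjusted p under 0.05 (1 of 10 at an unadjusted p under 0.05), where 0.194% of all kept genes were called and 16.3% had an unadjusted p under 0.05. On day 14, 0 of 10 were called (0 of 10 unadjusted), where 10.8% of all genes were called and 27.3% had an unadjusted p under 0.05. For the mean of both days, 0 of 10 were called (2 of 10 unadjusted, Tbxas1 and Ltb4r1) beside 14.5% of all genes, and 30.6% unadjusted. The change of the pre-treatment difference with day was called for 0 of 10 (0 of 10 unadjusted) beside 0.00841% of all genes, and lay between -0.49 (Ptges) and 0.03 (Ptgs2). The median size of the members' day 14 differences was 0.16, and that of all kept genes was 0.21.

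Between day 14 and day 8 of the same pre-treatment, few members passed. After GSK, 1 of 10 was called by limma, Ltb4r1, which was lower on day 14, beside 7.01% of all genes (3.05% higher and 3.95% lower). The members with an unadjusted limma p under 0.05 after GSK were Ptgs2, Ptges, Tbxas1, Ltc4s and Ltb4r1, beside 2954 of 11886 genes. After DMSO, 0 of 10 were called (4 of 10 unadjusted) beside 0.824% of all genes, and 15.4% unadjusted. These 2 comparisons share no library with each other, but each shares libraries with the comparisons of GSK with DMSO. In the mean of both, a comparison added after the data were seen, 3 of 10 were called beside 12.3% of all genes (5.31% higher and 7.03% lower). Ptgs2 and Tbxas1 were higher and Ltb4r1 lower on day 14. In that mean every member but Ptges and Alox5ap had an unadjusted limma p under 0.05, beside 3509 of 11886 genes. Libraries of the 2 days did not overlap for 5 of 10 members after GSK (3 higher and 2 lower on day 14) beside 30.3% of all genes (15.1% higher and 15.2% lower). After DMSO they did not overlap for 4 of 10 members (3 higher and 1 lower) beside 10.1% (4.10% higher and 5.98% lower).

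**Figure D2:**
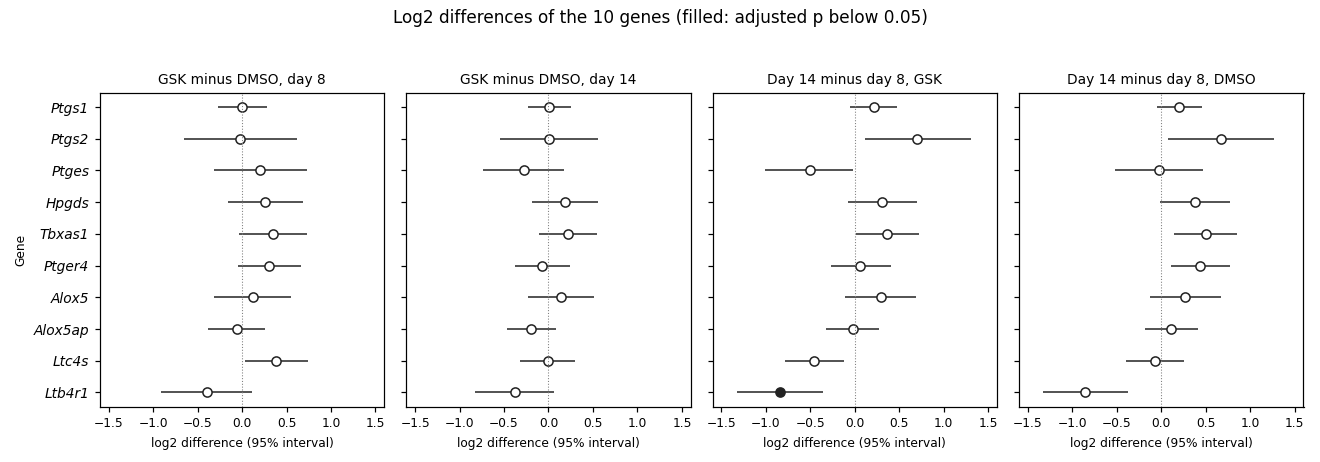
Log2 difference with its 95% interval from the limma fit, for each member in GSK minus DMSO on each day and day 14 minus day 8 after each pre-treatment, filled where the adjusted p was under 0.05. Between pre-treatments, the interval of Ltc4s on day 8 (0.04 to 0.73) alone leaves out 0, and between days Ltb4r1 lies below 0, at -0.84 after GSK and -0.86 after DMSO.

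Ltb4r1 encodes BLT1, the high-affinity receptor for leukotriene B4 (GRCm38 chr14:55765962-55768494, plus strand). Its level was 9.61, 9.80, 9.85 and 9.36 in GSK day 14 libraries and 10.98, 10.13 and 10.37 in GSK day 8 libraries. In DMSO day 14 libraries it was 10.22, 9.83, 9.64 and 10.43, and in DMSO day 8 libraries 11.19, 10.69 and 10.78. After each pre-treatment, every day 14 library lay below every day 8 library. The limma difference was -0.84 ± 0.22 (SE; adjusted p = 0.0346; 1.79-fold lower on day 14) after GSK and -0.86 ± 0.22 (adjusted p = 0.0856; 1.81-fold lower) after DMSO. Averaged over both, it was -0.85 ± 0.16 (limma adjusted p = 0.0037; 1.80-fold lower). The averaged difference kept its call without any 1 of the 14 libraries, between -0.94 and -0.73. The call after GSK ended without the first GSK day 8 library, the highest of its group, or without any 1 of the 4 GSK day 14 libraries (adjusted p up to 0.228), and the difference after DMSO was called without that GSK day 8 library (adjusted p = 0.0375).

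Between pre-treatments, Ltb4r1 averaged 10.49 ± 0.44 in GSK and 10.89 ± 0.27 in DMSO day 8 libraries (SD, n = 3 each), and 9.65 ± 0.22 in GSK and 10.03 ± 0.36 in DMSO day 14 libraries (SD, n = 4 each). The difference was -0.40 ± 0.24 (SE; limma adjusted p = 0.421) on day 8 and -0.38 ± 0.20 (adjusted p = 0.247) on day 14, and the groups overlapped on both days. Its mean over the days was -0.39 ± 0.16 (limma adjusted p = 0.103), which did not pass. The neighbouring receptor gene Ltb4r2 lay between 1.28 and 1.75, below the filter, and its annotated exons do not overlap those of Ltb4r1. Neutrophils also express Ltb4r1. Of the neutrophil markers, 5 of 9 passed the filter, Ly6g, Cxcr2 and Ngp were under an unlogged 10 in every library, and the summed level was 10.36 to 11.27 in GSK day 14, 11.09 to 11.35 in DMSO day 14, 10.58 to 10.67 in GSK day 8 and 10.27 to 10.94 in DMSO day 8 libraries. Retnlg was the highest gene of that sum, at 9.60 to 11.24. The other kept markers were Mmp8 (6.02 to 8.09), Csf3r (5.91 to 7.08), S100a9 (3.71 to 4.51) and S100a8 (3.67 to 4.35). In the average over pre-treatments, Retnlg was called higher on day 14 (0.57, limma adjusted p = 0.043) and Mmp8 lower (-0.78, adjusted p = 0.0257), as Ltb4r1 was, and the part of neutrophils in the level of Ltb4r1 was not tested.

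Ptgs2 encodes the inducible cyclooxygenase (chr1:150100031-150108227). It measured 10.28, 10.38, 9.77 and 10.10 in GSK day 14 libraries and 9.13, 9.59 and 9.57 in GSK day 8 libraries. DMSO day 14 libraries had 9.64, 10.60, 9.84 and 10.41, against 10.03, 8.75 and 9.56 in DMSO day 8 libraries. The days did not overlap after GSK and overlapped after DMSO, where the day 8 libraries spread widely. The difference of day 14 from day 8 was 0.70 ± 0.28 (SE; limma adjusted p = 0.127) after GSK and 0.67 ± 0.28 (adjusted p = 0.261) after DMSO, and 0.69 ± 0.20 averaged (adjusted p = 0.0333; 1.61-fold higher). That averaged call ended when any 1 of 8 libraries was left out: the second or the third DMSO day 8, the first GSK day 8, the second or the fourth DMSO day 14, or the first, second or the fourth GSK day 14 library (0.51 to 0.83 over all 14 omissions, limma adjusted p up to 0.0935). Between pre-treatments the means were close on each day. Ptgs2 averaged 9.43 ± 0.26 in GSK and 9.45 ± 0.65 in DMSO day 8 libraries (SD, n = 3 each), and 10.13 ± 0.27 in GSK and 10.12 ± 0.46 in DMSO day 14 libraries (SD, n = 4 each). The day 14 difference was 0.01 with a 95% interval of -0.53 to 0.55, so a difference of that size in either direction cannot be told from none.

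Ptgs1, the constitutive cyclooxygenase (chr2:36230426-36252272), was the steadiest member. It read 9.90, 9.93, 9.95 and 9.73 in GSK day 14 and 9.95, 9.87, 9.90 and 9.76 in DMSO day 14 libraries. GSK day 8 libraries had 9.69, 9.78 and 9.54, and DMSO day 8 libraries had 9.67, 9.61 and 9.71. Its range over all 14 libraries was 0.42, and 1.57% of kept genes had a smaller SD, whereas 92.4% had a smaller SD than Ptgs2. GSK and DMSO differed by 0.01 on day 14, with a 95% interval of -0.22 to 0.24. The difference of day 14 from day 8 was 0.21 ± 0.12 (SE; limma adjusted p = 0.281) after GSK and 0.20 ± 0.12 (adjusted p = 0.419) after DMSO, where the days did not overlap. Within a library, the log2 level of Ptgs2 minus that of Ptgs1 was -0.18 to 0.45 in GSK day 14 and -0.56 to 0.04 in GSK day 8 libraries, and -0.32 to 0.73 in DMSO day 14 and -0.87 to 0.36 in DMSO day 8 libraries. The days overlapped after both pre-treatments, and this is a description with no test.

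**Figure D3:**
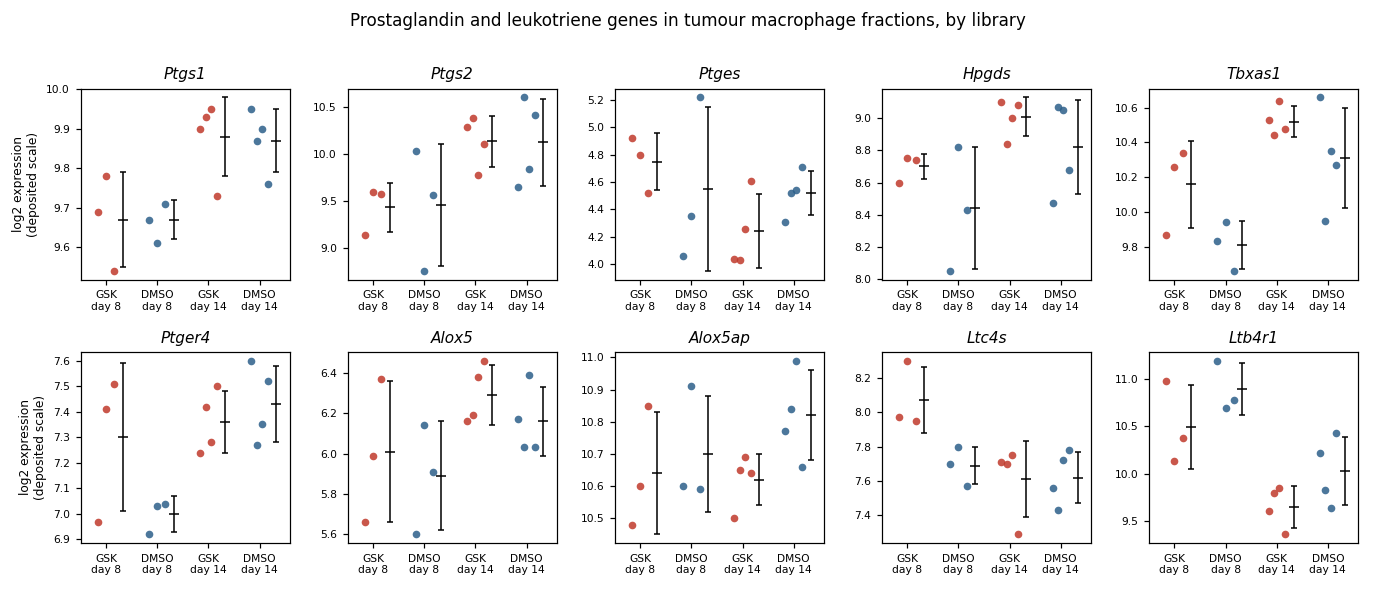
Log2 level of each of the 10 members by library, 1 panel per member, with GSK left of DMSO within each day, and the mean and SD of each group. Ltb4r1 is lower on day 14 in both pre-treatments, Ptgs2 and Tbxas1 are higher on average, and Ptgs1 stays between 9.54 and 9.95.

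Of the synthases that use prostaglandin H2, Tbxas1 makes thromboxane A2 (chr6:38875404-39084585). Its level was 10.53, 10.44, 10.64 and 10.48 in GSK day 14 libraries and 9.87, 10.26 and 10.34 in GSK day 8 libraries. DMSO day 14 libraries had 10.66, 9.95, 10.35 and 10.27, and DMSO day 8 libraries had 9.83, 9.94 and 9.66. Day 14 lay above day 8 without overlap after both pre-treatments. The difference was 0.36 ± 0.16 (SE; limma adjusted p = 0.176) after GSK, 0.50 ± 0.16 (adjusted p = 0.153) after DMSO and 0.43 ± 0.11 averaged (adjusted p = 0.0259; 1.35-fold higher). The averaged call ended without the third DMSO day 8, the first GSK day 8 or the third GSK day 14 library (limma adjusted p up to 0.0746). The difference of GSK from DMSO was 0.35 ± 0.17 on day 8 (limma adjusted p = 0.333) and 0.22 ± 0.15 on day 14 (adjusted p = 0.382), and 0.28 ± 0.11 in the mean (adjusted p = 0.107), none of which passed. Tbxas1 overlaps Hipk2 on the opposite strand, and Hipk2 had a level of 9.46 to 9.99. Whether the authors' counting used strand is not given in the sources used here, so reads of the pair may not have been told apart.

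Hpgds ranged from 8.05 to 9.10 and averaged 9.01 ± 0.12 in GSK day 14, 8.82 ± 0.29 in DMSO day 14 (SD, n = 4 each), 8.70 ± 0.08 in GSK day 8 and 8.44 ± 0.38 in DMSO day 8 libraries (n = 3 each). Every GSK day 14 library lay above every GSK day 8 library, a difference of 0.31 ± 0.18 (SE; limma adjusted p = 0.304), which did not pass. Mast cells are also known to express Hpgds, Alox5 and Ltc4s. Of 11 mast cell and basophil markers, 4 passed the filter, and Cpa3, Tpsb2, Tpsab1, Mcpt4, Cma1, Fcer1a and Ms4a2 were under an unlogged 10 in every library. The summed level of the list was 8.56 to 8.94 in GSK day 14 and 8.48 to 9.22 in DMSO day 14 libraries, against 9.33 to 10.02 in GSK day 8 and 9.71 to 10.11 in DMSO day 8 libraries. That sum was mostly Hdc, at 8.23 to 10.01, and every other gene of the list was at most 5.82. Of the 4 kept markers, 3 were called lower on day 14 in the average over pre-treatments (limma), beside 7.03% of all genes. The part of these cells in any member's level was not tested.

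Ptges ranged from 4.03 to 5.22 and was the member nearest to the filter, at 3.32 on the log2 scale. It averaged 4.24 ± 0.27 in GSK day 14, 4.52 ± 0.16 in DMSO day 14 (SD, n = 4 each), 4.75 ± 0.21 in GSK day 8 and 4.55 ± 0.60 in DMSO day 8 libraries (n = 3 each). The difference of day 14 from day 8 was -0.51 ± 0.23 (SE; limma adjusted p = 0.174) after GSK. Ptger4, the EP4 receptor that raises cyclic AMP, ranged from 6.92 to 7.60. It averaged 7.36 ± 0.12 in GSK and 7.43 ± 0.15 in DMSO day 14 libraries (SD, n = 4 each), and 7.30 ± 0.29 in GSK and 7.0 ± 0.07 in DMSO day 8 libraries (n = 3 each). Every DMSO day 14 library lay above every DMSO day 8 library, a difference of 0.44 ± 0.15 (SE; limma adjusted p = 0.188), and after GSK the difference was 0.06 ± 0.15 (adjusted p = 0.83). Neither passed, nor did the difference between them, at -0.37 (limma adjusted p = 0.656). Of the 31-base words of Ptger4, 15.2% also occur in other genes, among them Ttc33, which overlaps it and had a level of 6.90 to 7.70, so its level is uncertain.

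On the leukotriene branch, Alox5ap was high in every library and varied little. Its level lay between 10.48 and 10.99, and 4.09% of kept genes had a smaller SD. Alox5 lay between 5.60 and 6.46, and averaged 6.29 ± 0.15 in GSK day 14, 6.16 ± 0.17 in DMSO day 14 (SD, n = 4 each), 6.01 ± 0.35 in GSK day 8 and 5.89 ± 0.27 in DMSO day 8 libraries (n = 3 each). Neither passed in any comparison. Within a library, the log2 level of Alox5 minus that of Alox5ap was -4.46 to -4.18 in GSK day 14 and -4.81 to -4.60 in DMSO day 14 libraries, which did not overlap. On day 8 it was -4.82 to -4.48 in GSK and -5.00 to -4.68 in DMSO libraries, which overlapped, and the pair was chosen after the values were seen.

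Ltc4s, the leukotriene C4 synthase (chr11:50236461-50238616, minus strand), read 7.97, 8.30 and 7.95 in GSK day 8 libraries and 7.70, 7.80 and 7.57 in DMSO day 8 libraries. In GSK day 14 libraries it was 7.71, 7.70, 7.75 and 7.29, and in DMSO day 14 libraries 7.56, 7.43, 7.72 and 7.78. The 3 GSK day 8 libraries were above all other 11. On day 8 the difference of GSK from DMSO was 0.38 ± 0.16 (SE; 95% interval 0.04 to 0.73; limma adjusted p = 0.26), and Ltc4s was the 1 of 10 members whose groups did not overlap, beside 16.2% of all genes. On day 14 the difference was -0.01 ± 0.14 (limma adjusted p = 0.981), and 0 of 10 members were without overlap beside 22.0% of all genes. The difference of day 14 from day 8 after GSK was -0.46 ± 0.15 (limma adjusted p = 0.0751), with every library lower, and did not pass. Of the 31-base words of Ltc4s, 19.5% also occur in the antisense gene Gm26542, which had a level of -1.25 to -1.22.

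The other genes of the pathway were a list of 55, of which 50 had a row and 31 passed the filter. Pla2g10, Ptgds, Hpgd, Tbxa2r and Alox12b were not analysed here. The 19 below the filter included most other prostanoid receptors (Ptger1, Ptger3, Ptgdr, Ptgdr2 and Ptgfr), the receptors Ltb4r2 and Cysltr2, the prostacyclin synthase Ptgis, and the lipoxygenases Alox12, Alox8, Aloxe3 and Alox12e. The rest were Pla2g5, Pla2g2e, Mgst2, Mgst3, Ggt1, Dpep1 and Ephx2. On day 14, 3 of the 31 were called higher and 3 lower in GSK than in DMSO (limma), where 5.10% of all genes were called higher and 5.73% lower. On day 8, 0 of 31 were called (6 of 31 unadjusted), beside 0.194% of all genes (16.3% unadjusted). Between day 14 and day 8 after GSK, 3 were called higher and 2 lower, beside 3.05% of all genes higher and 3.95% lower. After DMSO it was 0 of 31 (9 of 31 unadjusted), beside 0.824% of all genes (15.4% unadjusted).

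Lta4h, which makes leukotriene B4, was higher in GSK on day 14. Its level was 6.06, 6.49, 5.97 and 6.42 in GSK day 14 libraries and 5.06, 5.50, 5.76 and 5.70 in DMSO day 14 libraries, without overlap. The difference was 0.73 ± 0.21 (SE; limma adjusted p = 0.0375; 1.66-fold higher). On day 8 it was 5.12, 5.71 and 5.50 in GSK and 5.46, 4.66 and 5.30 in DMSO libraries. GSK day 14 exceeded GSK day 8 by 0.79 ± 0.23 (limma adjusted p = 0.0457). The call between pre-treatments ended without the first, second or the fourth library of either day 14 group (limma adjusted p up to 0.135), and the call between days ended under 10 of 14 omissions (up to 0.262). Those 10 were the second and the fourth DMSO day 14 libraries, the third DMSO day 8 library and every GSK library. In the mean of both days Lta4h was also called higher in GSK, a call that ended under 9 of 14 omissions (0.40 to 0.60, limma adjusted p up to 0.113). Set against Ltc4s, which uses the same substrate, the log2 level of Lta4h minus that of Ltc4s averaged -1.38 ± 0.42 in GSK day 14 and -2.12 ± 0.26 in DMSO day 14 libraries (SD, n = 4 each), against -2.63 ± 0.21 in GSK day 8 and -2.55 ± 0.51 in DMSO day 8 libraries (n = 3 each). This within-library comparison was chosen after the values were seen and has no test.

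Cysltr1, a receptor for cysteinyl leukotrienes, was lower in GSK on day 14 and in the mean of both days, and lower on day 14 in the average over pre-treatments. It measured 9.18, 9.20, 9.18 and 9.16 in GSK day 14 and 9.55, 9.79, 9.53 and 9.62 in DMSO day 14 libraries. On day 8 it measured 9.60, 9.51 and 9.51 in GSK libraries and between 9.81 and 10.08 in the 3 DMSO libraries. GSK lay below DMSO without overlap on each day. The difference was -0.44 ± 0.11 on day 14 (SE; limma adjusted p = 0.0204; 1.36-fold lower), -0.43 ± 0.13 on day 8 (adjusted p = 0.122) and -0.43 ± 0.08 in the mean (adjusted p = 0.00444). The day 14 call ended without the second DMSO day 14 or the first or the fourth GSK day 14 library (limma adjusted p up to 0.0755), and the mean kept its call under every omission of 1 library. Averaged over pre-treatments, day 14 was lower than day 8 by -0.35 ± 0.08 (limma adjusted p = 0.0152), as Ltb4r1 was.

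**Figure D4:**
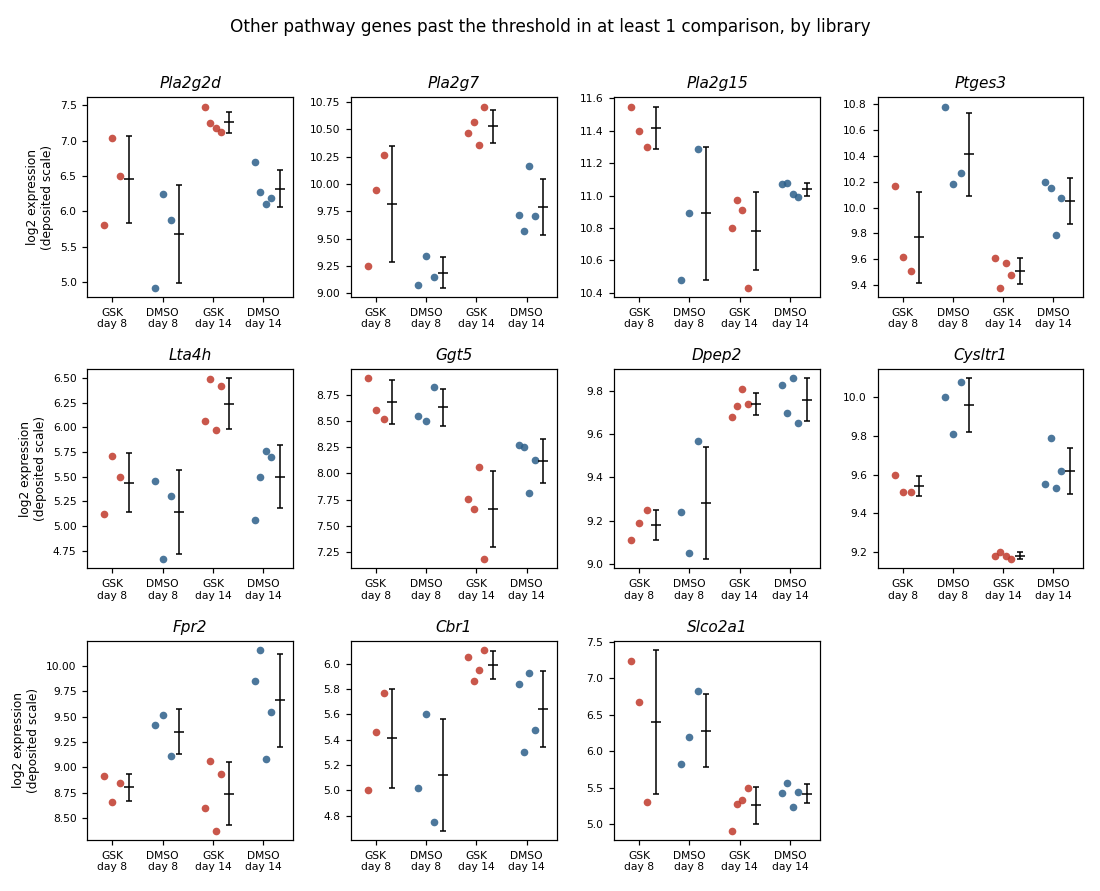
Log2 level of the other pathway genes called in at least 1 comparison, by library, 1 panel per gene, with GSK left of DMSO within each day, and the mean and SD of each group. On day 14, Lta4h, Pla2g2d and Pla2g7 are higher and Cysltr1, Ptges3 and Fpr2 are lower in GSK than in DMSO.

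Among enzymes that act on phospholipids, Pla2g2d and Pla2g7 were higher in GSK on day 14. Pla2g2d, a secreted phospholipase, averaged 7.26 ± 0.15 in GSK and 6.32 ± 0.26 in DMSO day 14 libraries (SD, n = 4 each), a difference of 0.94 ± 0.27 (SE; limma adjusted p = 0.0375; 1.92-fold). Pla2g7, the platelet-activating factor acetylhydrolase, averaged 10.53 ± 0.15 in GSK and 9.79 ± 0.26 in DMSO day 14 libraries, a difference of 0.74 ± 0.19 (limma adjusted p = 0.0249). Neither gene's groups overlapped on day 14. Their means over both days were 0.85 ± 0.21 for Pla2g2d (limma adjusted p = 0.0141) and 0.69 ± 0.14 for Pla2g7 (adjusted p = 0.00725), and both held under every omission of 1 library. The day 14 call of Pla2g2d ended under 7 of 14 omissions, of any DMSO day 14 library but the first or of any GSK day 14 library (limma adjusted p up to 0.0997). That of Pla2g7 ended without the first, second or the fourth DMSO or the second or the fourth GSK day 14 library (limma adjusted p up to 0.0994).

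In GSK day 14 libraries, Pla2g7 was also higher than in GSK day 8 libraries, by 0.70 ± 0.20 (SE; limma adjusted p = 0.0471). That call ended under 9 of 14 omissions: the first or second GSK day 8, the third DMSO day 8, the second or the fourth DMSO day 14 or any GSK day 14 library (0.42 to 0.93, limma adjusted p up to 0.294). Pla2g15, the lysosomal phospholipase, was lower in GSK day 14 than in GSK day 8 libraries, at 10.78 ± 0.24 (SD, n = 4) and 11.42 ± 0.13 (n = 3). The difference was -0.64 ± 0.17 (SE; limma adjusted p = 0.0381), and its call ended without the first or second GSK day 8, the fourth DMSO day 14 or any GSK day 14 library (limma adjusted p up to 0.194).

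Ptges3, a prostaglandin E synthase that also serves as a co-chaperone, averaged 9.51 ± 0.10 in GSK and 10.05 ± 0.18 in DMSO day 14 libraries (SD, n = 4 each). The groups did not overlap, and the difference was -0.54 ± 0.17 (SE; limma adjusted p = 0.0455). Over both days its mean was -0.59 ± 0.13 (limma adjusted p = 0.00765), called under every omission of 1 library. The day 14 call ended under 9 of 14 omissions: any GSK day 14 library, the first, second or the fourth DMSO day 14 library, the third DMSO day 8 library or the second GSK day 8 library (limma adjusted p up to 0.135). Fpr2, a formyl peptide receptor that also binds lipoxin, averaged 8.74 ± 0.31 in GSK and 9.66 ± 0.46 in DMSO day 14 libraries. Its difference was -0.92 ± 0.20 (SE; limma adjusted p = 0.0139), with no overlap, and only leaving out the second DMSO day 14 library ended the call (adjusted p = 0.0525). The mean over both days was also called for Fpr2, and held under every omission of 1 library (-0.83 to -0.65, limma adjusted p up to 0.0249). Other genes hold 20.9% of the 31-base words of Ptges3 and 43.0% of those of Fpr2, so their levels are uncertain.

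Of the genes that process leukotriene C4, Ggt5 was lower and Dpep2 higher on day 14 after GSK. Ggt5, which takes leukotriene C4 to leukotriene D4, averaged 7.66 ± 0.36 in GSK day 14 (SD, n = 4) and 8.68 ± 0.21 in GSK day 8 libraries (n = 3), a difference of -1.02 ± 0.19 (SE; limma adjusted p = 0.00832; 2.03-fold lower). Leaving out the first GSK day 8 library ended that call (limma adjusted p = 0.0541). Dpep2, a dipeptidase of the next step, averaged 9.74 ± 0.05 in GSK day 14 and 9.18 ± 0.07 in GSK day 8 libraries, a difference of 0.56 ± 0.13 (limma adjusted p = 0.0252). Its call ended without the first or second GSK day 8 or any GSK day 14 library (limma adjusted p up to 0.121), and Dpep2 has 41.0% of its words in common with other annotated genes. The average over both pre-treatments was called for both, at -0.77 ± 0.13 for Ggt5 (limma adjusted p = 0.00264) and 0.52 ± 0.09 for Dpep2 (adjusted p = 0.00339).

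That average also called Pla2g2d, Pla2g7 and Lta4h, each higher on day 14. With 1 library left out, the averaged difference of Pla2g7 was 0.51 to 0.77 and always kept its call (limma adjusted p up to 0.0262). The averaged calls of Pla2g2d (0.53 to 0.87, adjusted p up to 0.1) and Lta4h (0.46 to 0.66, up to 0.0913) each ended under 6 of 14 omissions. Cbr1 and Slco2a1 were called in that average alone, and Slco2a1 had just missed the threshold after GSK (limma adjusted p = 0.0501). Slco2a1, the prostaglandin uptake transporter, differed by -1.0 ± 0.24 (SE; limma adjusted p = 0.0145), lower on day 14, and with the epithelial covariate described below its direction turned, to 0.44 (adjusted p = 0.829). Cbr1, a carbonyl reductase that acts on prostaglandin E2, differed by 0.55 ± 0.16 (limma adjusted p = 0.0338), higher on day 14, which turned to -0.05 with that covariate (adjusted p = 0.986). The covariate did not overlap between the days, so day and epithelial level cannot be told apart in these turns. Cbr1 lost its call under 8 of 14 omissions (limma adjusted p up to 0.101). Those were all GSK day 14 libraries but the second, the third DMSO day 14, the first or the third DMSO day 8 and the first or second GSK day 8 library.

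The differences between days stood beside the lower epithelial markers of day 14. Of the 11 kept epithelial markers, 8 were called lower on day 14 after GSK, 1 after DMSO and 9 in the average (limma), and Esrp1 and Spint2 were under an unlogged 10 in every library. With the epithelial mean of each library as a covariate, the averaged difference was -0.63 for Ltb4r1 (limma adjusted p = 0.827), 0.53 for Ptgs2 (adjusted p = 0.902) and 0.08 for Tbxas1 (adjusted p = 0.973), and no member was called. Under it Pla2g7 in GSK day 14 against day 8 was -0.02, and none of the pathway calls between days held. Over all 11886 kept genes, 1 was called under it in the average, 1 after GSK and 3 after DMSO. Those counts were 1466, 833 and 98 without the covariate. Between pre-treatments on day 14, 415 of all kept genes were called with the covariate and 1287 without. With it, the limma adjusted p of that comparison was 0.0376 for Fpr2. It missed the threshold for Cysltr1 (0.0631), Pla2g7 (0.0816), Lta4h (0.0932), Pla2g2d (0.0958) and Ptges3 (0.126), with each direction kept. The epithelial mean did not overlap between the days, nor between pre-treatments on day 14. It was 4.39 to 4.61 in GSK day 14 and 4.68 to 5.00 in DMSO day 14 libraries. On day 8 it was 5.18 to 6.46 in GSK and 5.12 to 5.86 in DMSO libraries. Day and epithelial level therefore cannot be told apart in that fit, and a lost call or turned sign between days is a test of neither. Among the 9 libraries with AY036118-type ribosomal reads, the averaged difference was -0.68 for Ltb4r1 (limma adjusted p = 0.0495), 0.77 for Ptgs2 (adjusted p = 0.0204) and 0.39 for Tbxas1 (adjusted p = 0.0853). Those 9 hold 1 DMSO day 8 library, the one with the lowest Ptgs2 of all (8.75), and limma assumes that it varies like the other groups. In that split the Ltb4r1 difference after GSK alone was -0.60 (limma adjusted p = 0.111), and with the split as a term in all libraries it was -0.71 (adjusted p = 0.0577). Without the filter on low values, more genes entered the adjustment, and the limma adjusted p was 0.0882 for Ltb4r1 after GSK, and in the average 0.0141 for Ltb4r1, 0.0872 for Ptgs2 and 0.0606 for Tbxas1. Other marker lists moved too. Of 12 macrophage markers, 5 were called higher and 0 lower on day 14 in the average over pre-treatments (limma), beside 5.31% and 7.03% of all genes. On day 14, 3 were called higher (Adgre1, Cd68 and Lyz2) and 2 lower (Itgam and C1qa) in GSK than in DMSO, beside 5.10% and 5.73%. Of 6 endothelial markers, 3 were called lower on day 14 in the average over pre-treatments, beside 7.03% of all genes. Pecam1 differed by -0.66 (limma adjusted p = 0.0035). It lay at 9.28 to 10.77, above Kdr (7.24 to 8.30), Egfl7 (4.61 to 7.51), Cdh5 (3.82 to 5.01), Tek (3.24 to 4.21) and Cldn5 (2.87 to 4.09). The part of these cells in the members' differences was not tested. On day 14, 5 of 13 mitochondrially encoded genes were called higher in GSK than in DMSO, beside 5.10% of all genes. The part of RNA quality in the pathway calls of that day was not tested.

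For the 3 members of largest SD over the 14 libraries, Ltb4r1 (0.56), Ptgs2 (0.51) and Ptges (0.35), the kept genes of most similar profile were sought. Likeness was the root mean square difference between values centred on each gene's mean over the 14 libraries, in log2 units. Ltb4r1 was closest to Cracr2b (0.17), Atp9a (0.19) and Vps18 (0.20), beside a median of 0.60 over all kept genes. Ptgs2 was closest to Spata13 (0.18), Fen1 (0.19) and Nfe2l2 (0.22), beside a median of 0.56. Ptges was closest to Pdzd2 (0.15), Cgnl1 (0.18) and Diaph3 (0.19), beside 0.43. The libraries share their depth and makeup across all genes, and the values are a description with no test.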

How the data were processed

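The authors deposited 1 table of log2 values for 24556 mouse Ensembl genes in 14 libraries, all assigned. Per the submitters' processing notes, Bowtie2, RSEM 1.2.29 and DESeq2 1.12.4 were used, with builds mm10 and GRCh38. The transformation that gave the log2 values is not given in the sources used here, and if it shrinks low genes, their differences are understated. Genes near the floor repeat a lowest value that differs by gene, such as -1.86 for Ptgdr, -0.36 for Ggt1 and 1.27 for Alox12. A fixed constant added to every count would give genes without reads a common lowest value, which was not checked on counts. No counts were used, so the depth is not known, and counting intervals are not given. Symbols, positions and exon lengths came from GENCODE M21 (GRCm38) matched on the Ensembl ID, and 86 of the 24556 had no symbol.

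Genes were kept when the unlogged value was at least 10 in 3 or more libraries, a log2 value of 3.32. A limma model (limma 3.58.1, R 4.3.3) with 4 group means and a variance trend was fitted to all 11886 kept genes in all 14 libraries, checked on simulated data. Tests were two-sided, with Benjamini-Hochberg adjustment over the kept genes and a threshold of 0.05. There were 6 comparisons, and 1 (the average of the day differences) was added after the data were seen. Intervals are 95% intervals of that model. Groups came from the labels. The shared replicate numbers did not pair the libraries. Alternatives covered pseudocounts, filters, scaling, variance trend, quality weights, replicate block, groups fitted, ribosomal split, an epithelial covariate and omitted libraries. Members and lists were chosen with earlier results of these data known. All 10 members are given, and every other pathway gene called in a comparison is named.

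Sequence sharing is the percent of a gene's 31-base exonic words found in another gene. Promoter windows are RefSeq's, of GRCm38.p6.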

Additional observations from a re-analysis of the deposited data

Results flagged for a closer look

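In GSK day 14 libraries, Ltc4s was 7.29 in the fourth library, against 7.70 to 7.75 in the other 3. That gap was 0.88 of the group's range, and it was the 1 such gap among 42 groups of 4 libraries tested, where chance flags about 1 in 20.

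Pla2g15 differed in opposite directions on the 2 days. Every GSK day 8 library was above every DMSO day 8 library, a difference of 0.53 (limma adjusted p = 0.176), and every GSK day 14 library was below every DMSO day 14 library, a difference of -0.26 (adjusted p = 0.315). The test of the change between days gave -0.79 ± 0.25 (SE; limma adjusted p = 0.504), which did not pass.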

How the results depend on the processing

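The number of members called in the mean of GSK against DMSO was 0, and it was 1 after quantile normalisation, 2 with library quality weights, 1 in the 9 libraries of AY036118 type, 2 with the first day 8 library of each pre-treatment left out (chosen after seeing the data), and 0 to 2 when 1 library was left out. For DMSO day 14 against day 8 it was 0, and 0 to 1 with 1 library left out. For GSK day 14 against day 8 it was 1. It became 0 without a filter, with the replicate block, with a ribosomal term, in the AY036118 libraries, with the epithelial covariate and without the first day 8 libraries. It became 2 after quantile normalisation or with only the groups compared, 5 with quality weights, and 0 to 1 with 1 library left out. Over all 11886 kept genes, calls of that comparison went from 833 to 906 after quantile normalisation, 1517 with only the groups compared and 3523 with quality weights. They fell to 301 with the replicate block, 471 with a ribosomal term, 174 without the first day 8 libraries and 1 with the epithelial covariate. Without a filter, 257 of 24556 genes were called. For the averaged day difference the number of members called was 3. It was 1 without a filter or with the replicate block, 0 with the epithelial covariate, and 1 to 4 with 1 library left out. All-gene calls of that average went from 1466 to 712 without a filter, 737 with the replicate block and 1 with the covariate. For the mean of GSK against DMSO, all-gene calls went from 1724 to 1686 after quantile normalisation and 2820 with quality weights. They were 2358 without the first day 8 libraries. The counts of members called between pre-treatments on day 8, on day 14 and in their change were 0 under every alternative run. The replicate numbers did not pair the libraries (correlations of deviations -0.344 to 0.171; own number best in 1 of 6 libraries on day 8 and 2 of 8 on day 14). With the replicate block, Ltb4r1 after GSK was -0.86 (limma adjusted p = 0.0539), Ptgs2 averaged 0.64 (0.105) and Tbxas1 0.44 (0.0699).

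For the named other pathway genes, 254 of the differences recomputed under other settings stayed on their side of the threshold and 79 lost their call, as did 93 with 1 library left out. Some differences, most of them near 0, changed sign, and the cause was not tested. With the epithelial covariate, GSK day 14 against day 8 was -0.18 for Alox5, -0.23 for Ptger4, 0.38 for Ptges, -0.12 for Tbxas1 and -0.02 for Pla2g7. DMSO day 14 against day 8 was -0.04 for Alox5ap and 0.38 for Ptges, and the averaged day difference was -0.05 for Cbr1 and 0.44 for Slco2a1. GSK against DMSO was 0.05 for Alox5ap, -0.09 for Ptges, -0.04 for Ptgs1 and 0.05 for Ptgs2 on day 8, and 0.00 for Ltc4s and -0.04 for Ptgs2 on day 14. In the AY036118 libraries, where DMSO day 8 is 1 library assumed to vary like the other groups, DMSO day 14 against day 8 was -0.03 for Alox5ap, -0.06 for Hpgds and 0.07 for Ptges, and Ptger4 after GSK was -0.10. GSK against DMSO was -0.08 for Hpgds and 0.83 for Ptgs2 on day 8, and -0.05 for Ptgs1 on day 14. With quality weights, Ltc4s and Ptgs2 on day 14 were 0.00 and -0.08, Ptgs2 on day 8 was 0.21 and Ptger4 after GSK was -0.06. After quantile normalisation, Alox5ap was 0.02 between days after GSK and 0.03 on day 8, Ptges between days after DMSO was 0.02 and Ptgs2 on day 8 was 0.01. With a ribosomal term, Alox5 was -0.04 on day 14 and -0.00 on day 8, Ptgs1 -0.00 and Ptgs2 0.15 on day 8, and Ptges 0.01 between days after DMSO. After TMM scaling, Ptgs1 was -0.00 on day 14 and -0.01 on day 8, and Ptgs2 -0.00 on day 14. Without the first day 8 libraries, Ptger4 after GSK was -0.10, and on day 8 Ptges was -0.12, Ptgs1 -0.01 and Ptgs2 0.43. With 1 library left out, GSK against DMSO spanned -0.05 to 0.07 for Ptgs1, -0.37 to 0.27 for Ptgs2, -0.04 to 0.54 for Ptges, -0.06 to 0.29 for Alox5 and -0.16 to 0.05 for Alox5ap on day 8. On day 14 it spanned -0.03 to 0.06 for Ptgs1, -0.15 to 0.17 for Ptgs2 and -0.07 to 0.10 for Ltc4s. Between days it spanned -0.27 to 0.31 for Ptges after DMSO, and -0.10 to 0.17 for Ptger4 and -0.10 to 0.08 for Alox5ap after GSK.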
